A study of Mus musculus with 11 samples.

Results

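The genes examined were 10 transcription factors of the AP-1 and immediate early group, chosen by name: the FOS family (Fos, Fosb, Fosl1, Fosl2), the JUN family (Jun, Junb, Jund), Atf3, Maff and Egr1. All 10 were found in both count tables, among 54532 genes listed for the pancreas and 46078 for adipose tissue. The libraries were RNA sequencing libraries from a mouse model of obesity-related alcohol-induced acute pancreatitis (OA-AP), with 2 control and 3 OA-AP pancreases and 3 control and 3 OA-AP samples of epididymal adipose tissue. All mice were wild-type males, 16 weeks old, of strain C57BL/6 by the labels and C57BL/6J by the methods of the study. OA-AP mice had received a diet with 60% of its energy as fat for 12 weeks and then 2 intraperitoneal injections of ethanol at 2 g/kg, given 1 h apart. Control mice had received a diet with 10% of energy as fat and saline in place of ethanol, and tissue was taken 12 h after the first injection. Diet and ethanol differed together between the groups, so their contributions cannot be told apart, and the drug-treated mice of the study were not analysed here.

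AP-1 is a dimer of basic leucine zipper proteins. JUN proteins pair with each other or with FOS proteins, whereas FOS proteins need a JUN partner to bind DNA. Fos, Junb, Atf3 and Egr1 are immediate early genes, whose transcription is switched on through the MAP kinase routes without new protein synthesis and usually falls again soon after a stimulus. JUND is the most constitutively expressed JUN protein, FOSL1 and FOSL2 lack the strong activation domain of FOS, ATF3 is a stress-induced bZIP factor, MAFF is a small MAF protein that lacks an activation domain, and EGR1 is a zinc finger factor outside the bZIP group.

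The promoters of 8 of the 10 members were matched in the RefSeq table (GRCm38.p6), which holds no entry for Fosl1 or Egr1. The 250 bases before the start are shown for Fos, for Jun and Junb, the matched members with the largest called differences between the tissues, and for Atf3 and Maff, which hold an 8-letter match close to the start. Capitals mark matches, on either strand, to TGANTCA, TNACNTCA or TGACG.
Fos, chr12:85473640-85473889 (+ strand): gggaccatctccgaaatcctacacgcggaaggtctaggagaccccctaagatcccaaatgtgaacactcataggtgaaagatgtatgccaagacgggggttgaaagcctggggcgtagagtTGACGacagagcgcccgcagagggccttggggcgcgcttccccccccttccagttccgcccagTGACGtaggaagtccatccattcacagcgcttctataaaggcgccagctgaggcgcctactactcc
Jun, chr4:95052223-95052472 (- strand): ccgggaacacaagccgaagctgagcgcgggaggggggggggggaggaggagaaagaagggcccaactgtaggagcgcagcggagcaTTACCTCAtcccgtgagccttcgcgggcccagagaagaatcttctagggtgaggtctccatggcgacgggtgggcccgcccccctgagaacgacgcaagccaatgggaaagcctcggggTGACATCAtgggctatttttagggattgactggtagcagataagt
Junb, chr8:84978749-84978998 (- strand): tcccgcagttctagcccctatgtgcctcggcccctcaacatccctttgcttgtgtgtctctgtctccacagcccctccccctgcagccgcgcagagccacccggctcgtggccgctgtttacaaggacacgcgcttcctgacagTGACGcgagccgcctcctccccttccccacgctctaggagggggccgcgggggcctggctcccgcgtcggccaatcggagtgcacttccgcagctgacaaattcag
Atf3, chr1:191183334-191183583 (- strand): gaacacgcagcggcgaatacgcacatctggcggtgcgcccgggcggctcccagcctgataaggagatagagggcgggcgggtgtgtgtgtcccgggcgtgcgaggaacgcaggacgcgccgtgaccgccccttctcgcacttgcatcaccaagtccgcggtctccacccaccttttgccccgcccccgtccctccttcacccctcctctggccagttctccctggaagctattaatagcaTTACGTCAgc
Maff, chr15:79347270-79347519 (+ strand): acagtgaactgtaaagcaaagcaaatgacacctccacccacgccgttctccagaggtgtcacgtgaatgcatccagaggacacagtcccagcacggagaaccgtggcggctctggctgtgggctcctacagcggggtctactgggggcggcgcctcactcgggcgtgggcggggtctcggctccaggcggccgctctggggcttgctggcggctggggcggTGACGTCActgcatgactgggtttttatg
The 3 patterns are the AP-1 site TGANTCA, the 8-letter pattern TNACNTCA of CRE-like and Jun promoter sites, which was chosen after these sequences had been seen, and the CRE core TGACG, which can lie inside an 8-letter match. TNACNTCA was found in the promoters of 4 of the 8 members (Jun, Jund, Atf3 and Maff) and in 14% of all 32841 promoters of the same length. In Jun it stood 164 and 45 bases upstream of the start, in Atf3 10 bases and in the Maff promoter shown 29 bases. TGACG was found in 5 of the 8 members (Fos, Fosb, Junb, Atf3 and Maff) against 17.8% of all promoters. TGANTCA and the CArG box, the site of serum response factor, were found in 0 of the 8, against 6.75% and 1.47% of all promoters, which says only that these letters are not in these windows. The EGR1 pattern GCGNGGGCG was found in 3 of the 8 (Fosb, Fosl2 and Maff), against 4.7% of all promoters. RefSeq gives Maff 3 starts, of which the one with the TGACGTCA match is printed. Maff was counted if any of its 3 windows matched, whereas the shares of all promoters are per single window. RefSeq starts can differ from the deposited gene coordinates. The Jund window ends at base 70697738, before the deposited gene start at 70698949, and the Fosl2 and Atf3 windows lie inside the deposited genes.

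Total counts were 14188832 to 17238919 per pancreas library and 20825177 to 27928097 per adipose library. Levels are given as CPM, counts set relative to the library total after TMM scaling, and a member passed the test at a Benjamini-Hochberg adjusted p under 0.05 over all genes, from edgeR's quasi-likelihood test, with a fold change of at least 1.5. No label says that the replicates are separate animals, so p-values measure the spread between these samples. In the pancreas, 15 acinar cell markers summed to 654614 and 766376 CPM in the controls and to 292665 to 368968 CPM in OA-AP, and TMM factors were 0.793 and 0.698 against 1.11 to 1.32. With library totals in place of TMM factors, the median log2 change of all tested genes was 0.75 in the pancreas and -0.16 in adipose tissue, against 0.04 and -0.00 with them. Adipose control replicate 2 held 5790 CPM of acinar transcripts against 8.96 to 19.2 CPM in the other adipose libraries, and results are given without it where this mattered. In whole tissue, fewer cells of a type and less RNA per cell cannot be told apart. The adipose libraries carried adipocyte markers at a summed 34956 to 41658 CPM, with the most counts on Fabp4 and Pnpla2.

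In the pancreas, 7 of the 9 tested members rose in OA-AP and none fell, beside 29.8% of all tested genes called in either direction and 16.2% called higher. The median log2 change of the 9 was 2.61, against 0.04 for all tested genes. Fosb was removed by the filter on low counts, and Fosl1 and Atf3 did not pass. In 8 of the 10 members the control and OA-AP ranges did not overlap, as for 62.4% of all tested genes.

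Junb (chr8:84974484-84978718), a JUN protein that is induced early, changed most. Its level in the pancreas was 3.77 and 3.98 CPM in the controls and 79.2, 90.8 and 184 CPM in OA-AP replicates 1, 2 and 3. The lowest OA-AP value was 19.9 times the highest control value, and the log2 fold change was 4.93 (SE 0.49, edgeR adjusted p = 0.00106). Jun (chr4:95049034-95052222), the prototype of the family, stood at 6.26 and 5.97 CPM in the controls and at 29.4, 25.3 and 50.04 CPM in OA-AP. These groups were apart as well, with a log2 fold change of 2.51 (SE 0.33, edgeR adjusted p = 0.00167). Jund (chr8:70698949-70700616) stood at 19.9 and 20.3 CPM in the controls and at 46.1, 43.1 and 76.8 CPM in OA-AP. It rose by the smallest amount among the 7 called members, with a log2 fold change of 1.46 (SE 0.27, edgeR adjusted p = 0.00576). The Jund call rested on both controls, since the adjusted p was 0.0666 without control replicate 1 and 0.0683 without replicate 2.

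The JUN genes share sequence with other annotated genes, and the strand setting of the counting was not given in the sources used here. In GENCODE M21, 52.6% of the exon bases of Jund lie opposite Gm11175, which is listed at 0 counts in all 11 libraries, 7.28% of those of Jun lie opposite Junos, and 7.52% of those of Junb overlap Prdx2 on the other strand. For Fosl1 the share is 57.2%, opposite Ccdc85b, in a gene model of 2033 exon bases, where the deposited length is 1707 bases. Without strand, reads from these overlaps cannot be told apart. If such reads were left uncounted, the levels of these genes would be too low, which was not tested.

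Within the FOS family, Fos and Fosl2 rose in the pancreas, Fosl1 did not pass the test, and Fosb was too low for it. Fos (chr12:85473890-85477273), the canonical immediate early gene, stood at 0.60 and 0.199 CPM in the controls, from 7 and 2 counts, and at 2.41, 2.00 and 6.48 CPM in OA-AP. The groups did not overlap, and OA-AP replicate 3 was the highest. The log2 fold change was 3.12 (SE 0.76, edgeR adjusted p = 0.0176), and the call was lost without control replicate 1 (adjusted p = 0.0776) or without control replicate 2 (adjusted p = 0.141).

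Fosl2 (chr5:32135801-32157842), which encodes FRA-2, stood at 4.28 and 3.29 CPM in the control pancreases and at 17.8, 27.2 and 43.0 CPM in OA-AP. Every OA-AP library was at least 4.16 times the highest control, and the log2 fold change of 2.95 (SE 0.43, edgeR adjusted p = 0.00333) passed under every alternative tried. Fosl1 (chr19:5447703-5455945), which encodes FRA-1, stood at 1.11 and 0.299 CPM in the controls and at 0.472, 0.686 and 0.992 CPM in OA-AP. The OA-AP values lay within the control range, with a log2 difference of -0.01 (SE 0.65, edgeR adjusted p = 0.993) whose sign turned under 5 of 11 alternatives. Fosb (chr7:19302696-19310051) had 0 and 0 counts in the controls and 3, 0 and 8 counts in OA-AP, which is too few to pass the filter.

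Of the remaining members, Egr1 and Maff rose in the pancreas and Atf3 did not pass the test. Atf3 (chr1:191170296-191218039) stood at 0.343 and 0.0996 CPM in the controls, from 4 counts and 1 count, and at 2.25, 0.971 and 8.25 CPM in OA-AP. The groups did not overlap, but the OA-AP libraries differed 8.50-fold among themselves, and the log2 difference of 4.02 (SE 1.27) did not pass (edgeR adjusted p = 0.0529). It passed without OA-AP replicate 3 (log2 2.73, edgeR adjusted p = 0.00559), without OA-AP replicate 2 (log2 4.47, edgeR adjusted p = 0.00917) and with DESeq2 (log2 4.07, adjusted p = 0.000553). The range of adjusted p over all alternatives was 0.000339 to 0.243.

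Egr1 (chr18:34859823-34864984) stood at 2.999 and 1.99 CPM in the control pancreases and at 12.8, 6.46 and 27.0 CPM in OA-AP. The lowest OA-AP library was 2.15 times the highest control. The log2 fold change of 2.61 (SE 0.72, edgeR adjusted p = 0.0398) was lost without control replicate 1 (adjusted p = 0.146), without control replicate 2 (adjusted p = 0.188) and with no filter on low counts (adjusted p = 0.215). Maff (chr15:79346621-79359076) stood at 2.31 and 2.59 CPM in the controls and at 7.76, 8.29 and 12.0 CPM in OA-AP. Its groups were far apart for their spread, with a log2 fold change of 1.93 (SE 0.28, edgeR adjusted p = 0.00191).

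**Figure D1:**
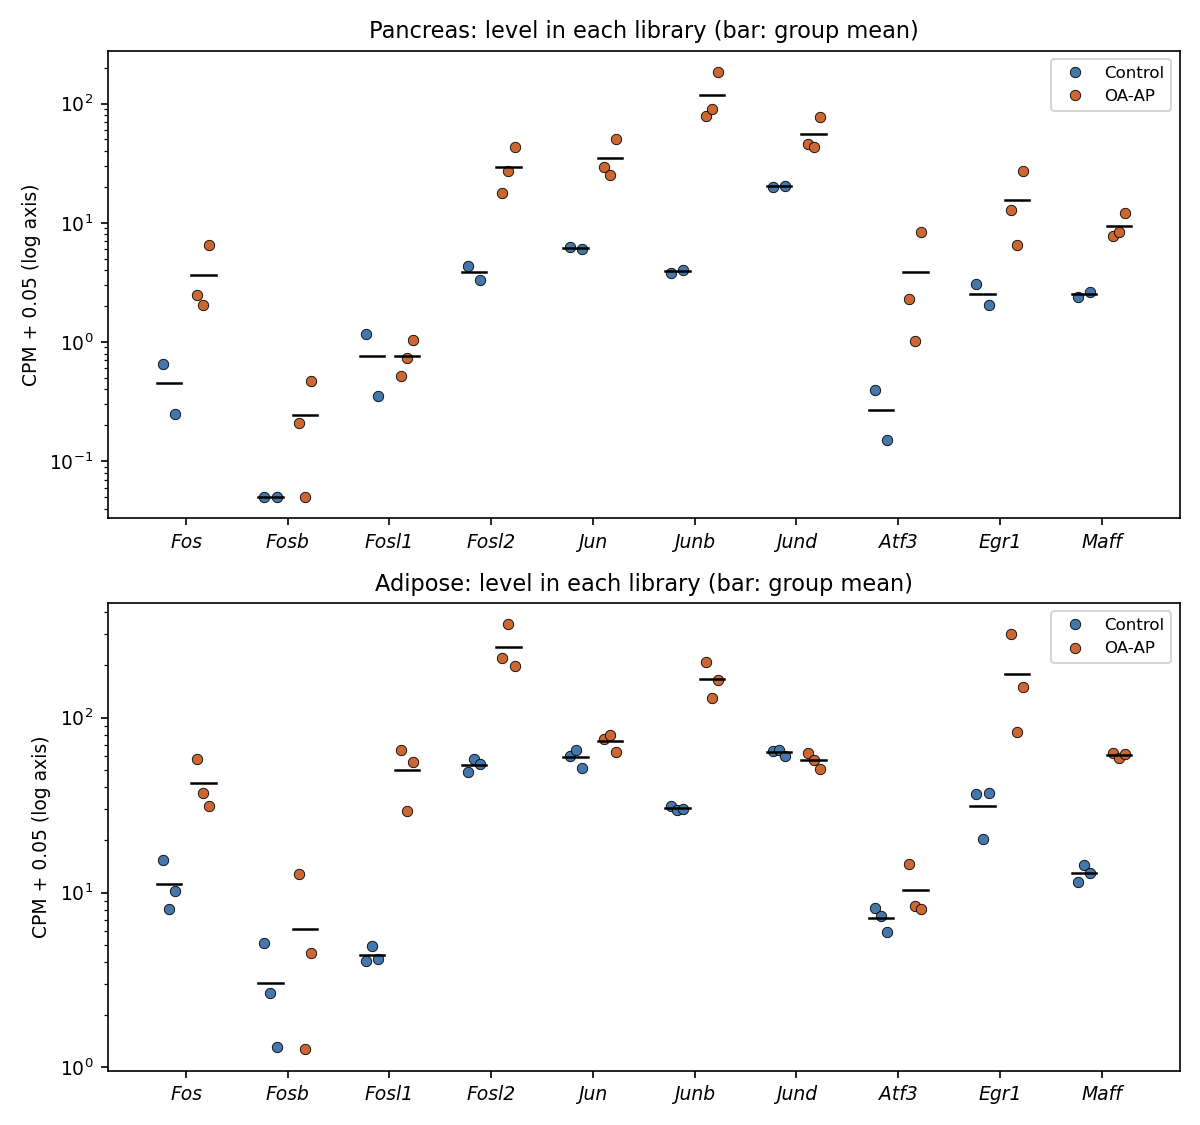
Level of each of the 10 members in every library, plotted as TMM-scaled CPM plus 0.05 on a log axis, with pancreas and adipose tissue in separate panels, points for libraries and horizontal bars for group means. Junb in the pancreas lies at 3.77 and 3.98 CPM in the controls and at 79.2 to 184 CPM in OA-AP, whereas Jund in adipose tissue lies at 60.1 to 65.1 CPM in the controls and at 51.1 to 62.5 CPM in OA-AP.

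In adipose tissue, 6 of the 10 members rose in OA-AP (Fos, Fosl1, Fosl2, Junb, Egr1 and Maff) and none fell, beside 25.0% of all tested genes called in either direction and 12.4% called higher. The median log2 change of the 10 was 2.07, against -0.00 for all tested genes. The ranges of the 2 groups did not overlap for the 6 that rose and overlapped for the other 4, while 52.8% of all tested genes had ranges apart.

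Within the FOS family, Fosl1, Fosl2 and Fos rose in adipose tissue. Fosl1 stood at 4.03, 4.91 and 4.14 CPM in the controls and at 65.7, 29.1 and 56.1 CPM in OA-AP. All OA-AP libraries were above all controls, by at least 5.94-fold, and the log2 fold change was 3.53 (SE 0.32, edgeR adjusted p = 0.000749). Fosl2 stood at 48.8, 57.9 and 54.0 CPM in the controls and at 218, 342 and 197 CPM in OA-AP. OA-AP replicate 2 was the highest, the lowest OA-AP library was 3.41 times the highest control, and the log2 fold change was 2.24 (SE 0.22, edgeR adjusted p = 0.000857). Fos stood at 15.3, 8.05 and 10.2 CPM in the controls and at 58.0, 37.1 and 31.4 CPM in OA-AP. The groups did not overlap, with a log2 fold change of 1.91 (SE 0.31, edgeR adjusted p = 0.00488).

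Fosb, by contrast, stood at 5.13, 2.60 and 1.26 CPM in the control adipose tissue and at 12.7, 1.22 and 4.48 CPM in OA-AP. The groups overlapped, the OA-AP libraries differed 10.5-fold among themselves, and the log2 difference of 1.04 (SE 0.83, edgeR adjusted p = 0.362) became -0.08 without OA-AP replicate 1.

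Of the JUN family only Junb passed the test in adipose tissue. Its level was 31.2, 29.7 and 30.1 CPM in the controls and 207, 130 and 164 CPM in OA-AP. The controls lay within 1.05-fold of one another, and the log2 fold change was 2.46 (SE 0.17, edgeR adjusted p = 0.000327). Jun stood at 60.7, 65.2 and 51.6 CPM in the controls and at 75.7, 79.9 and 63.6 CPM in OA-AP. The lowest OA-AP library lay below the highest control, and the log2 difference of 0.30 (SE 0.13, edgeR adjusted p = 0.0956) did not pass. Jund stood at 64.5, 65.1 and 60.1 CPM in the controls and at 62.5, 57.4 and 51.1 CPM in OA-AP. Its groups overlapped, and the log2 difference was -0.15 (SE 0.10, edgeR adjusted p = 0.260).

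Maff had the tightest OA-AP group in adipose tissue. It stood at 11.4, 14.4 and 12.9 CPM in the controls and at 63.1, 58.6 and 62.3 CPM in OA-AP. The OA-AP libraries lay within 1.08-fold of one another, and the log2 fold change was 2.25 (SE 0.11, edgeR adjusted p = 0.000184). Egr1 stood at 36.7, 20.3 and 36.8 CPM in the controls and at 299, 82.6 and 149 CPM in OA-AP. The groups were apart but the OA-AP libraries differed 3.62-fold, with a log2 fold change of 2.50 (SE 0.49, edgeR adjusted p = 0.00944) and no call when no filter on low counts was used (edgeR adjusted p = 0.0663). Atf3 stood at 8.10, 7.34 and 5.87 CPM in the controls and at 14.5, 8.34 and 8.01 CPM in OA-AP. The lowest OA-AP library fell just inside the control range, and the log2 difference was 0.53 (SE 0.26, edgeR adjusted p = 0.148).

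**Figure D2:**
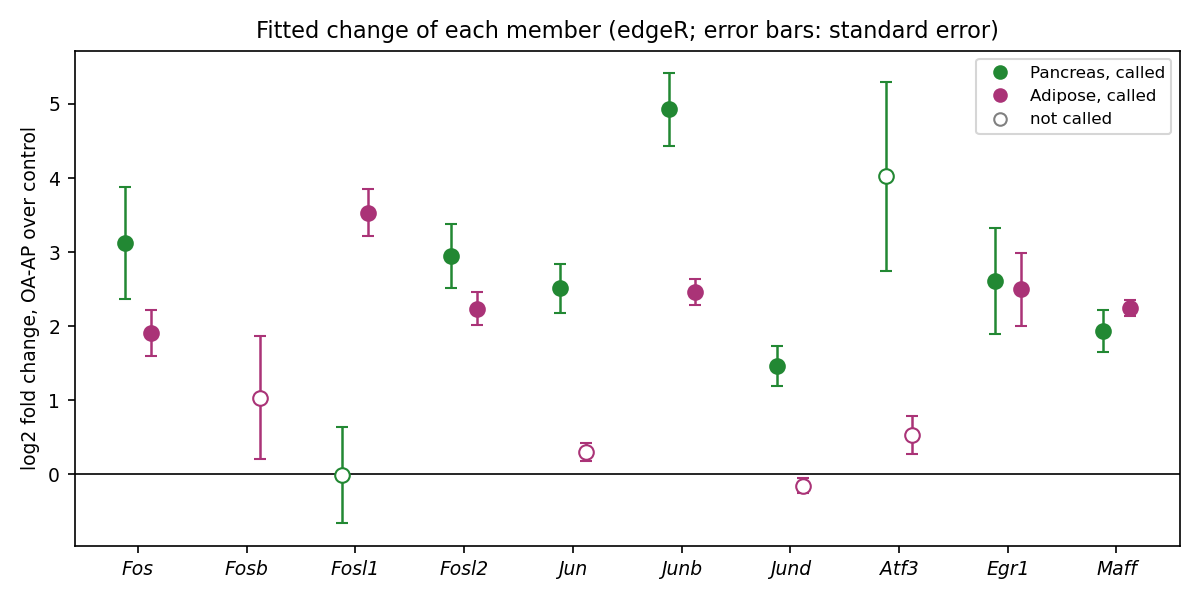
Fitted log2 fold change of OA-AP over control for each member in each tissue, with standard errors as bars; filled points passed the test and open points did not, and Fosb in the pancreas was not tested. Junb reached 4.93 in the pancreas and 2.46 in adipose tissue, and Fosl1 -0.01 and 3.53.

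Whether the members changed by different amounts in the 2 tissues was asked with the tissue by condition term of one edgeR fit over all 11 libraries. No label tells if a pancreas and an adipose library with the same number and group share a mouse, and the fit took all libraries as separate. The term passed for 4 of the 10 members at an adjusted p under 0.05, as for 21.3% of the 17046 genes tested. The change of all 3 JUN genes was smaller in adipose tissue than in the pancreas. The change in adipose tissue minus that in the pancreas was -2.49 on the log2 scale for Junb (SE 0.48, edgeR adjusted p = 0.00422), -2.23 for Jun (SE 0.36, edgeR adjusted p = 0.00138) and -1.63 for Jund (SE 0.29, edgeR adjusted p = 0.00235). These 3 differences passed under every alternative tried, library totals included, where the median of the term over all genes moved from -0.06 to -0.88. Fosl1 went the other way, with a larger change in adipose tissue by 3.53 (SE 0.77, edgeR adjusted p = 0.00755), which was lost without pancreas control replicate 1 (log2 2.24, edgeR adjusted p = 0.303).

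For the other 6 members no difference between the tissues was called. Atf3 came nearest, with a difference of -3.55 and an edgeR adjusted p of 0.0789, and it passed with DESeq2 (adjusted p = 0.00886). The difference was -1.25 for Fos (edgeR adjusted p = 0.422), -0.73 for Fosl2 (edgeR adjusted p = 0.341), -0.14 for Egr1 (edgeR adjusted p = 0.968) and 0.29 for Maff (edgeR adjusted p = 0.522). Fosb could hardly be compared, with a difference of -5.48 and an SE of 6.49. With library totals the Maff difference was -0.53, and that of Fosl2 became -1.53 (edgeR adjusted p = 0.0163). The tissues also differed before disease, since Fos was at 0.60 and 0.199 CPM in the control pancreases and at 8.05 to 15.3 CPM in the control adipose libraries, levels set side by side from tables that were scaled separately.

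The make-up of the FOS and JUN transcripts was described by dividing the counts of each gene by its length. Its share of their sum does not depend on library scaling. These are shares of RNA, and the AP-1 proteins and their dimers were not measured here. Junb rose in share in both tissues and Jund fell. In the pancreas the share of Jund was 70.7% and 74.3% in the controls and 37.1%, 33.4% and 30.8% in OA-AP. That of Junb was 9.71% and 10.6% in the controls and 46.3%, 51.1% and 53.5% in OA-AP. Thus Jund made up most of the length-scaled counts in each control pancreas library and Junb the largest share in each OA-AP pancreas library. The full length of Jund was used, although 52.6% of its exon bases lie opposite Gm11175. If reads there went uncounted, the Jund shares would be too low and the order of Jund and Junb in OA-AP could differ, which was not tested. Jun held 11.5% ± 0.136 (SD, n = 2) in the controls and 11.04% ± 1.15 (SD, n = 3) in OA-AP, and the whole FOS family 5.83% ± 3.07 and 4.92% ± 0.574. The groups overlapped for both.

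In adipose tissue the share of Jund was 44.9%, 45.9% and 46.3% in the controls and 15.7%, 18.7% and 16.2% in OA-AP. Junb went from 15.8%, 15.2% and 16.8% to 37.7%, 30.7% and 37.7%. The FOS family as a whole held 16.1% ± 1.11 (SD, n = 3) in the controls and 36.4% ± 0.784 (SD, n = 3) in OA-AP, with no overlap. Within it Fosl1 went from 3.08% ± 0.318 to 14.2% ± 4.36 and Fosl2 from 6.69% ± 0.720 to 13.1% ± 5.26, both without overlap, while Fos, at 5.72% ± 1.78 and 8.64% ± 1.64, overlapped. Which of Fosl1 and Fosl2 gained more turned with the use of length. The gain was 11.2 points for Fosl1 and 6.43 points for Fosl2 with division by length, and 5.92 and 14.9 points without it. Without OA-AP replicate 2 the gain of Fosl2 was 3.42 points. The gain of Junb, 19.4 points, was 12.4 points without division by length. The share of Jun was 22.3% ± 1.64 in the controls and 11.4% ± 1.96 in OA-AP while its CPM ranges overlapped.

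Each share without overlap had p = 0.1 in a two-sided exact permutation test, the smallest that 2 against 3 or 3 against 3 libraries allow, and 0.18 when adjusted over the 18 shares compared, so none passed. The shares rest on 342 to 6924 FOS and JUN counts per pancreas library and 5568 to 13879 per adipose library. They also rest on the deposited lengths, and on the Jund and Fosl1 exons that lie opposite another gene.

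**Figure D3:**
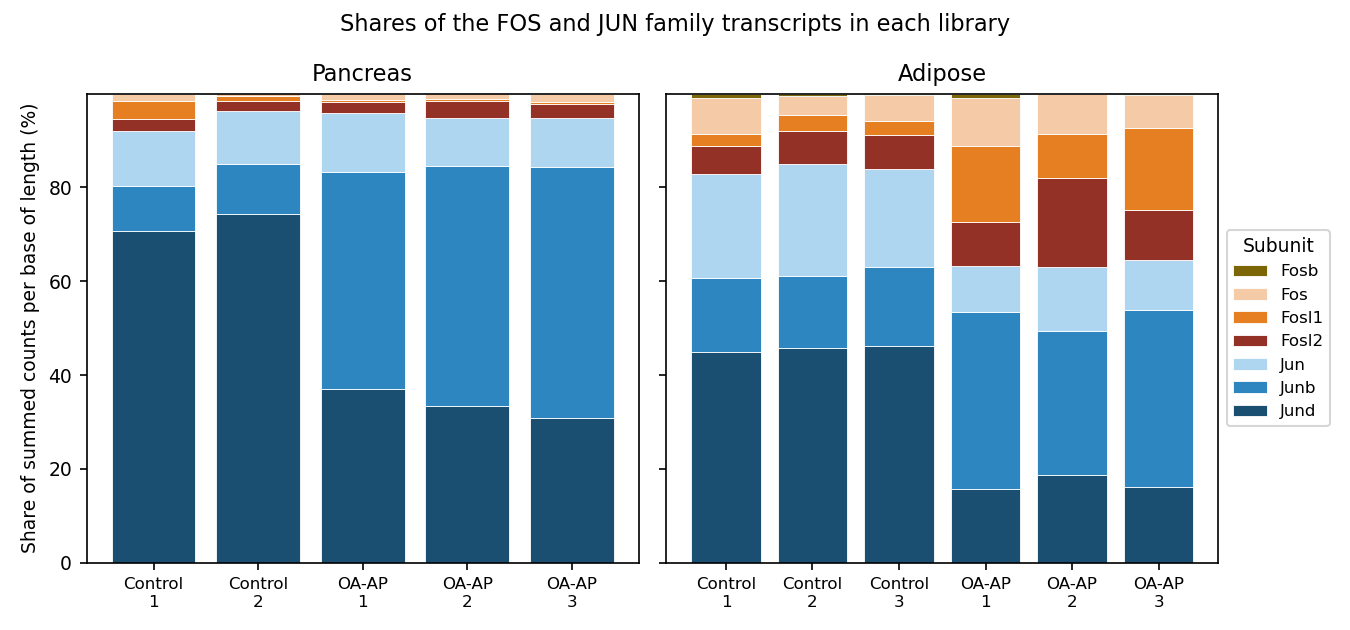
Share of each FOS and JUN gene in the summed length-scaled counts of these 7 genes, in percent, as 1 stacked bar per library for pancreas and adipose tissue. Jund falls from 70.7% and 74.3% to 30.8% to 37.1% in the pancreas while Junb rises, and in adipose tissue Fosl1 and Fosl2 widen as well.

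Ranked by CPM per kilobase of gene length, Jund stood first in the control pancreas with 12.0, followed by Jun with 1.92 and Junb with 1.68, and these 3 did not overlap in range. In OA-AP pancreas Junb came first with 51.3 and Jund second with 33.2, with ranges that overlapped, and Jun next with 10.9. In control adipose tissue Jund again led with 37.9, then Jun with 18.6 and Junb with 13.2, each apart from the next. In OA-AP adipose tissue Junb led with 72.6, and Egr1 with 39.5, Jund with 34.2, Fosl1 with 29.5, Fosl2 with 26.1, Maff with 23.7, Jun with 22.9 and Fos with 17.9 formed a series in which each range overlapped the next. Atf3 with 4.77 and Fosb with 0.985 CPM per kilobase were lowest and apart from that series. These levels also use the full length of Jund, so they would be too low for Jund if reads opposite Gm11175 went uncounted.

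The OA-AP libraries were not alike for these genes. Among the OA-AP pancreases replicate 3 was the highest for 9 of 9 tested members, and for 39.6% of all tested genes. Its level was 5.12 times the mean of the other OA-AP pancreases for Atf3, 2.94 times for Fos, 2.79 times for Egr1, 2.16 times for Junb and 1.497 times for Maff. The same library carried 118 CPM of 15 neutrophil markers summed, against 16.4 and 5.20 CPM in the other OA-AP pancreases and 1.46 and 2.39 CPM in the controls. None of these markers was at 0 in all pancreas libraries, and S100a9 and S100a8 had the most counts. Of the 9 that could be tested none passed, with a median log2 difference of 5.19. Replicate 3 was also the highest OA-AP pancreas for summed macrophage and monocyte markers, at 143 CPM against 88.3 and 88.2 CPM. The same held for the summed duct, endothelial, adipocyte, acinar and lymphocyte markers. Its summed fibroblast and mesothelial markers were the lowest, at 80.8 CPM against 117 and 141 CPM. Summed adipocyte markers moved with the group in the pancreas, from 55.8 and 73.4 CPM to 162 to 293 CPM, with 3 of 5 tested risen. The part of these differences in the members' levels was not tested. Without the library, 8 members passed the test, beside 4266 of all 12576 genes tested. Their log2 fold changes were 4.41 for Junb, 2.73 for Atf3, 2.51 for Fosl2 and 2.35 for Fos. They were 2.11 for Jun, 1.89 for Egr1, 1.66 for Maff and 1.10 for Jund.

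Among the OA-AP adipose libraries replicate 1 was the highest for 8 of the 10 members, against 34.4% of all tested genes, and replicate 2 was the highest for Fosl2 and Jun. Egr1 in replicate 1 was 2.58 times and Fosb 4.47 times the mean of the other OA-AP libraries. Summed neutrophil markers were alike in the 3 OA-AP libraries, at 245, 235 and 257 CPM, against 17.6 to 24.1 CPM in the controls, and 9 of the 10 tested rose and 1 fell. Their level moved with the group rather than with the library, and its part in the members' changes was not tested. Of the 15 macrophage and monocyte markers, 7 rose and 1 fell in adipose tissue (summed 1258 to 1604 CPM in the controls and 1645 to 2207 CPM in OA-AP), and of the 11 tested lymphocyte markers 8 fell. Without adipose control replicate 2, the library with acinar transcripts, all 6 members that rose still passed.

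**Figure D4:**
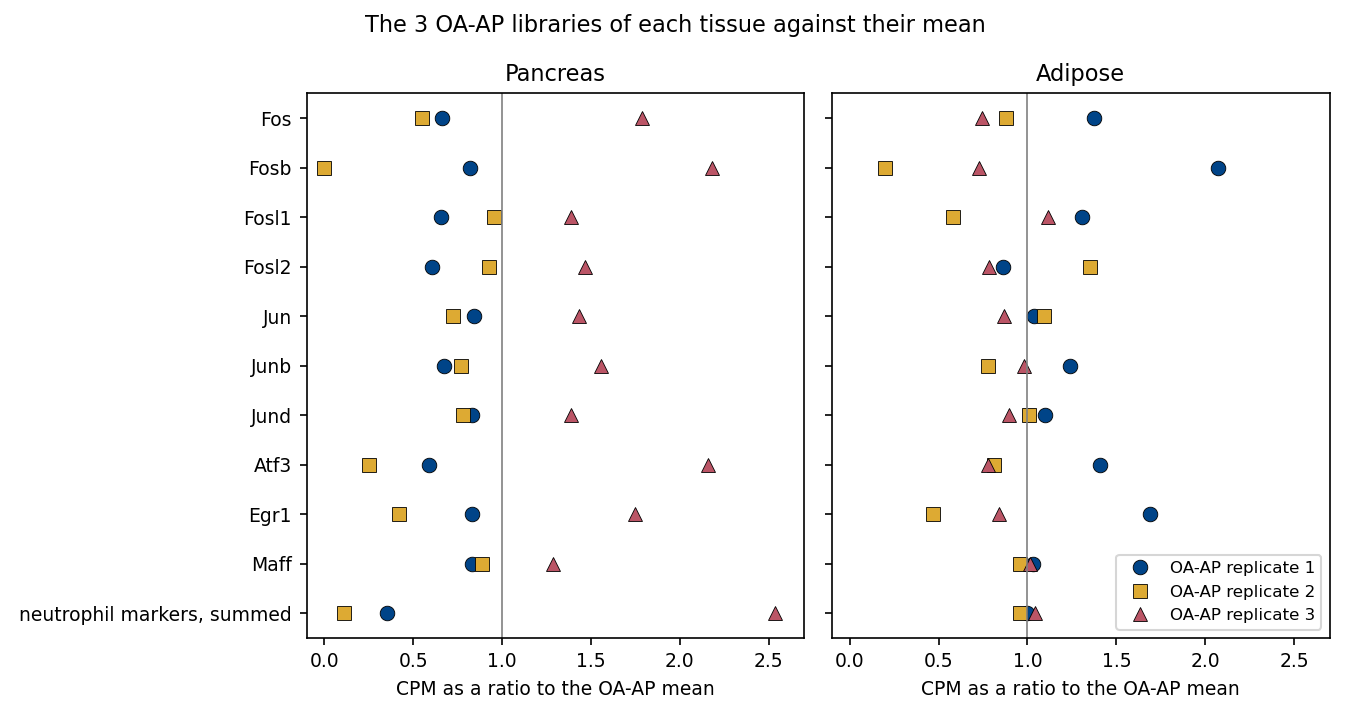
Level of each member, and of the summed neutrophil markers, in each OA-AP library relative to the mean of the 3 OA-AP libraries of its tissue, on a linear axis. In the pancreas replicate 3 lies highest for each member and for the neutrophil markers, and in adipose tissue replicate 1 lies highest for 8 of the 10 members while the neutrophil markers are level.

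Over all 11 libraries, the genes outside the member list whose profile was nearest to that of Fos were Plaur, the urokinase receptor, Slc10a6, Osmr, the oncostatin M receptor, Ms4a4a and Tubb6. Their root mean square differences from Fos in centred log2 CPM were 0.40, 0.48, 0.51, 0.53 and 0.53, among 17046 genes, where Fos itself had an SD of 1.68. The nearest members were Egr1 with 0.57, Fosl2 with 0.63 and Atf3 with 0.78, and the farthest was Jund with 1.90. These distances are a description over 4 groups in 2 tissues, most of whose spread is between the groups.

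Other immediate early genes were described with a hand-written list of 33 that leaves out the members. In the pancreas 13 of the 29 tested rose and 4 fell, with a median log2 change of 1.43. Of all tested genes there, 29.8% were called in either direction and 16.2% higher. Klf10, a TGF-beta-inducible repressor, rose from 6.77 and 7.37 CPM to 47.9, 56.6 and 46.8 CPM (log2 2.83, SE 0.17, edgeR adjusted p = 5.8e-05), and Gadd45b, a stress-induced regulator of p38 and JNK signalling, rose by 3.39 on the log2 scale (edgeR adjusted p = 0.00243). Tsc22d1 rose by 1.71. In the opposite direction, Plk2 went from 74.3 and 89.9 CPM to 16.0, 18.3 and 14.1 CPM (log2 -2.35, SE 0.16, edgeR adjusted p = 9.59e-05), and Nr4a2 and Myc fell too, by 1.37 and 0.74 on the log2 scale. In adipose tissue 15 of 32 rose and none fell, with a median of 0.87, beside 25.0% of all tested genes called and 12.4% called higher. Socs3, a feedback inhibitor of cytokine signalling, stood at 14.5, 11.3 and 12.4 CPM in the controls and at 219, 161 and 184 CPM in OA-AP (log2 3.88, SE 0.16, edgeR adjusted p = 0.000184). Ier5l and Ppp1r15a, a phosphatase subunit of the stress response, rose by 1.64 and 0.88. Myc, which fell in the pancreas, rose in adipose tissue by 1.76 (edgeR adjusted p = 0.00141).

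Of the other bZIP genes that can pair with AP-1 proteins, 9 of 25 tested rose and 3 fell in the pancreas (median log2 0.54). In adipose tissue 7 of 26 rose and 2 fell (median log2 0.15). Of all tested genes, 29.8% were called in the pancreas (16.2% higher) and 25.0% in adipose tissue (12.4% higher). Cebpb, an acute phase regulator, rose in both, from 4.97 and 4.78 CPM to 19.7, 16.6 and 30.6 CPM in the pancreas (log2 2.19, edgeR adjusted p = 0.00157) and by 1.52 in adipose tissue (edgeR adjusted p = 0.000746). Nfe2l1 and Cebpg rose in the pancreas by 1.30 and 1.07. Nfil3 rose in adipose tissue by 3.08 (edgeR adjusted p = 0.000621), and Mafk, another small MAF gene, by 1.15 (edgeR adjusted p = 0.000666). Cebpa, which maintains the mature adipocyte, fell by 1.29 there (edgeR adjusted p = 0.00356), beside 2 of 12 adipocyte markers that fell and 1 that rose, and Creb5 fell by 1.25. In the pancreas Ddit3, Atf6 and Atf5, genes of cellular stress responses, fell by 1.96, 0.99 and 0.70 on the log2 scale, beside 12 of 15 acinar markers that fell.

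A list of genes upstream of AP-1 was described in the same way. In the pancreas 7 of 27 tested rose and 1 fell, with a median log2 change of 0.32, beside 29.8% of all tested genes called there, and in adipose tissue 2 of 28 rose and 1 fell, with a median of 0.02, beside 25.0% of all tested genes called. Srf, the serum response factor that drives Fos and Egr1, rose in the pancreas from 8.998 and 9.16 CPM to 26.2, 24.2 and 28.7 CPM (log2 1.54, SE 0.15, edgeR adjusted p = 0.000408), with its cofactor Elk4 (log2 1.36, edgeR adjusted p = 0.00193) and the p38 kinase gene Mapk14 (log2 1.26, edgeR adjusted p = 0.00307). In adipose tissue the Srf difference was 0.40, under the fold limit (edgeR adjusted p = 0.0466). The JNK2 gene Mapk9 fell in the pancreas by 0.62 (edgeR adjusted p = 0.00805), while the JNK1 gene Mapk8 and the SRF cofactor Elk3 did not pass in either tissue (log2 -0.51 and -0.59 in the pancreas, 0.05 and 0.12 in adipose tissue). In adipose tissue Map2k3, a kinase that activates p38, rose by 1.10 (edgeR adjusted p = 0.00219), and Map2k6, which has the same role, fell by 1.30 (edgeR adjusted p = 0.0179). Mkl2, a coactivator of SRF, rose there by 0.69.

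Of 33 textbook target genes of AP-1 and EGR1, 9 of 26 tested rose and 2 fell in the pancreas (median log2 1.63). In adipose tissue 20 of 31 rose and none fell (median log2 2.18). Among all tested genes 29.8% were called in the pancreas (16.2% higher) and 25.0% in adipose tissue (12.4% higher). Timp1, an inhibitor of metalloproteinases, stood at 4.98, 3.77 and 5.09 CPM in control adipose tissue and at 276, 175 and 307 CPM in OA-AP. The groups were 34.3-fold apart at their nearest, with a log2 fold change of 5.77 (SE 0.27, edgeR adjusted p = 0.000184), and the matrix gene Tnc and the haem oxygenase gene Hmox1 rose there by 3.91 and 2.66. In the pancreas Mmp3, a stromelysin, rose by 3.43 (edgeR adjusted p = 0.0027) and Pdgfa by 1.88 (edgeR adjusted p = 0.000283). Ccnd1, the gene of cyclin D1, fell there by 2.02 on the log2 scale and Nab1, a corepressor of EGR1, by 1.01. The EGR1-induced corepressor gene Nab2 rose in adipose tissue by 1.48 (edgeR adjusted p = 0.00281), and its log2 difference of 1.16 in the pancreas did not pass (edgeR adjusted p = 0.123). Many of these targets also answer to other factors, so the counts do not show which factor acted on them.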

How the data were processed

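RNA of the pancreas and of epididymal fat was sequenced from controls and OA-AP mice, 11 libraries in all. The authors trimmed reads with Trim Galore 0.6.6, checked them with fastp 0.20.1, mapped them to GRCm38 with STAR 2.7.4a and deposited whole-number counts per gene from featureCounts 2.0.1, without normalization. Annotation release and strand setting are not given in the sources used here. The deposited pancreas table also lists gene lengths, used for shares and levels per kilobase.

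From these counts, low genes were removed with filterByExpr (12884 kept in the pancreas, 15839 in adipose tissue, 17046 in both together), libraries were scaled by TMM, and each tissue was tested with edgeR 4.0.16 (quasi-likelihood, robust, R 4.3.3) with calls at a Benjamini-Hochberg adjusted p under 0.05 and a change of 1.5-fold or more. The tissue by condition term had no fold limit. The standard error of a log2 change was its size over the root of the F statistic. Shares were compared with two-sided exact permutation tests. Scripts were tested on simulated data.

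Groups came from the sample labels. The members and gene lists were chosen with earlier results of these data known. All 10 members are named, and from each list bearing on AP-1 the 3 called genes with the smallest adjusted p per tissue and direction. Srf, Elk3, Mapk8, Mapk9 and Nab2 and the 5 genes nearest to Fos were added. From the cell type lists, the 2 genes with the most counts are named for neutrophils in the pancreas and for adipocytes in adipose tissue. A gene that this rule selects is not reported here. Any other gene named was chosen after its values were seen. For the duplicated symbol Ddit3 the row with the larger total was used. Further marker lists held duct (pancreas, 3 rose and 2 fell; adipose tissue, 1 rose), endothelial (2 fell; 1 rose) and fibroblast and mesothelial genes (none passed; 4 fell).

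Replicate pairs differed by a chi-square of 7.56 to 73.9 per degree of freedom, so no library was counted as a repeat sequencing of another. The check compares counts with sampling error alone, so it cannot tell whether libraries came from separate animals. Alternatives were DESeq2 1.42.0, its size factors in edgeR, library totals, TMM without acinar and secretory genes, no filter, at least 10 counts in every library, a fold of 2, a replicate block, shares without division by length, and each library left out in turn. Intervals were not computed, and the depth limits of low genes cover counting error only.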

Additional observations from a re-analysis of the deposited data

Results flagged for a closer look

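The change in OA-AP differed between the tissues for 4 of the 10 members, by the test of the tissue by condition term in edgeR over all 11 libraries. The term passed for 21.3% of all 17046 genes tested. The change in adipose tissue minus that in the pancreas was 3.53 on the log2 scale for Fosl1 (SE 0.77, edgeR adjusted p = 0.00755), which rested on pancreas libraries of 3 to 19 counts. It was -2.49 for Junb (SE 0.48, edgeR adjusted p = 0.00422), -2.23 for Jun (SE 0.36, edgeR adjusted p = 0.00138) and -1.63 for Jund (SE 0.29, edgeR adjusted p = 0.00235). Acinar markers fell in the pancreas beside these changes, and their part in them was not tested. No group held 4 or more libraries, so single libraries were not tested for standing apart.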

How the results depend on the processing

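The calls for Junb, Jun, Fosl2 and Maff in the pancreas and for Fos, Fosl1, Fosl2, Junb and Maff in adipose tissue held under all alternatives. The number of members called was 7 in the pancreas (4 to 8 with a library left out, 4 without either control), 6 in adipose tissue and 4 for the tissue by condition term. Genes called numbered 3834 in the pancreas, 6345 with library totals, 2464 at a fold of 2 and 1495 to 4266 with a library left out. They numbered 3962 in adipose tissue and 2219 at a fold of 2. For the tissue by condition term they numbered 3636, 6659 with library totals and 2334 to 3857 with a library left out. With library totals 92.0% of the calls were higher in the pancreas (54.5% with TMM), 32.8% in adipose tissue (49.4%) and 5.90% for the term (50.7%). The JUN family share moved by 0.912 points in the pancreas, -0.0113 without division by length and -1.26 to 3.09 with a library left out. It moved by -20.4 points in adipose tissue and -21.9 without division by length. The number of members called also varied outside the pancreas. In adipose tissue it was 5 with no filter on low counts. For the tissue by condition term it was 3 with at least 10 counts in every library, 5 with DESeq2 and 6 with library totals.

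Signs turned in uncalled values. Pancreas Fosl1 was 0.65 with library totals, 0.064 with no filter, 1.25 without control replicate 1, 0.21 and 0.014 without OA-AP replicates 1 and 2, and between -0.63 and 1.25 with any library left out. Adipose Fosb was -0.077 without OA-AP replicate 1, and up to 1.68 with another left out. The term was -0.53 for Maff with library totals, and for Egr1 0.12 without pancreas control replicate 2, 0.54 without pancreas OA-AP replicate 3 and 0.16 without adipose OA-AP replicate 2, with -0.78 as its lowest value with a library left out. The causes were not tested.

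Deviations of same-numbered control and OA-AP libraries from their group means had correlations of 0.00 and -0.04 in the pancreas and -0.16 to 0.06 in adipose tissue. With so few libraries per group, these values cannot decide whether the numbers pair the libraries. Same-numbered pancreas and adipose libraries of a group had correlations of -0.01 to 0.09. With the replicate block 4101 genes were called in the pancreas, 3472 in adipose tissue and 2155 for the term, members called were 8, 6 and 4, Atf3 in the pancreas passed (edgeR adjusted p = 0.00247), and the Egr1 term was 0.033.

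Fos, Atf3, Fosb and Fosl1 in the control pancreas rest on 0 to 13 counts per library, where differences of small size were not detectable. With 2 control pancreases, the spread within the controls rests on a single pair of libraries, while the test took the spread over both groups.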
